A study of Mus musculus with 3 samples.

Results

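The 42 genes described here are mouse genes that cells switch on when interferon reaches them, and the measurement is the number of peaks of 5-hydroxymethylcytosine (5hmC) at each gene. The members were given as a list of gene symbols, with families read from the symbols (Ifit, Oas, Gbp, Slfn, Ifitm and the Ifi200 genes). Each was placed at its span in the mm10 genome. A peak counted for a gene when its midpoint lay inside the span or within 5 kb of it. All 42 were found in the gene table, which holds 21779 protein-coding genes. Of the members, 40 are protein-coding, and Mx1 and Mx2 are listed there as transcribed pseudogenes.

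The series comprised 3 samples of mouse bone marrow cells, 1 of normal marrow and 2 of a leukaemia called NIDF-AML. Per the labels, that acute myeloid leukaemia (AML) was induced by FLT3-ITD together with IDH2/R140Q, DNMT3A/R882H and NPMc, the cytoplasmic mutant of NPM1. Strain, age, promoters and pooling of animals are not given in the sources used here. Peak lists deposited under the 2 leukaemia samples were analysed, and no list deposited under the normal marrow sample was analysed here.

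The 2 lists held the same 223267 lines, so they were counted as 1 list of 208468 distinct peaks with a median width of 65 bp. In either header the treatment is index 4, set against index 5 in the first list and index 6 in the other. Which sample carries index 4 is not stated. Since that index is common to the lists and the controls are 2 others, the counted peaks may be those of normal marrow rather than leukaemia. All values therefore belong to the index 4 library, and no comparison of leukaemia with normal marrow was possible. The peaks carry no score, read depth is unknown, and there is no spread between replicates. An absent peak means only that none was listed. Intervals in brackets are exact Poisson intervals for counts and densities and Wilson intervals for shares, at 95%. They treat peaks and genes as independent and cover counting error only. All 10 granulocyte and monocyte markers had 1 or more peaks within 5 kb, from 3 at Ly6g to 34 at Csf1r. Over all protein-coding genes 73.1% had a peak. Of the 4 neuronal markers only Rbfox3 had any, with 14, and of the 4 hepatocyte markers 2 had any. B cell, T cell and erythroid markers (4 of 4 in each list) also had peaks. With so few genes per list, these counts do not identify the cells.

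Many interferons are secreted by cells that sense viral or bacterial nucleic acids. Interferons bind surface receptors, and Jak kinases become active. Transcription factors then enter the nucleus to bind the interferon-stimulated response element (ISRE) or the gamma-activated site (GAS) at target genes. The induced genes make proteins that block virus entry, degrade or edit RNA, stop translation and attack vacuoles of intracellular microbes. 5hmC is made from 5-methylcytosine by TET enzymes and is known for lying in the bodies and enhancers of active genes, and mutant IDH2 makes a metabolite that inhibits TET enzymes.

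Nearly every interferon-induced gene had a 5hmC peak, but the number differed widely between families. Of the 42 members, 39 had a peak within 5 kb, or 92.9% [81.0 to 97.5%], against 73.1% of all protein-coding genes. The genes without any were Gbp2, Gbp6 and Ifi204. A peak inside the gene itself was found at 34 members (81.0%), against 66.6% of protein-coding genes. The median member had 5 peaks within 5 kb and a median density of 0.249 peaks per kb of gene plus flanks. Over all protein-coding genes the medians were 4 peaks and 0.106 per kb. Together the members held 240 distinct peaks, of which 134 lay in a gene body. Of the 240, 10 counted for a pair of members: 7 for Ifitm3 and Ifitm6, 2 for Oas2 and Oas3 and 1 for Irgm2 and Igtp. Also, 19 lay inside another protein-coding gene, members included.

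A long gene offers more sequence for peaks, so each member was set beside the 500 other protein-coding genes nearest to it in span. In these a mean of 74.3% had a peak, and the median over the members of their like-span densities was 0.160 per kb. The members' own median of 0.249 had an interval over members of 0.0862 to 0.378, which includes 0.160. Members had more peaks than the median gene of like span in 24 of 42 cases, or 57.1% [42.2 to 70.9%], where 44.6% of all protein-coding genes did. The excess of members with at least 5 peaks was small, at 23 of 42 (54.8%) against 46.2%. The spread among the members was thus wide on both sides of genes of like span: Trim25 had 23 peaks and was exceeded by 1.6% of such genes, while Ifi204 had 0 and was exceeded by 82.8%.

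**Figure D1:**
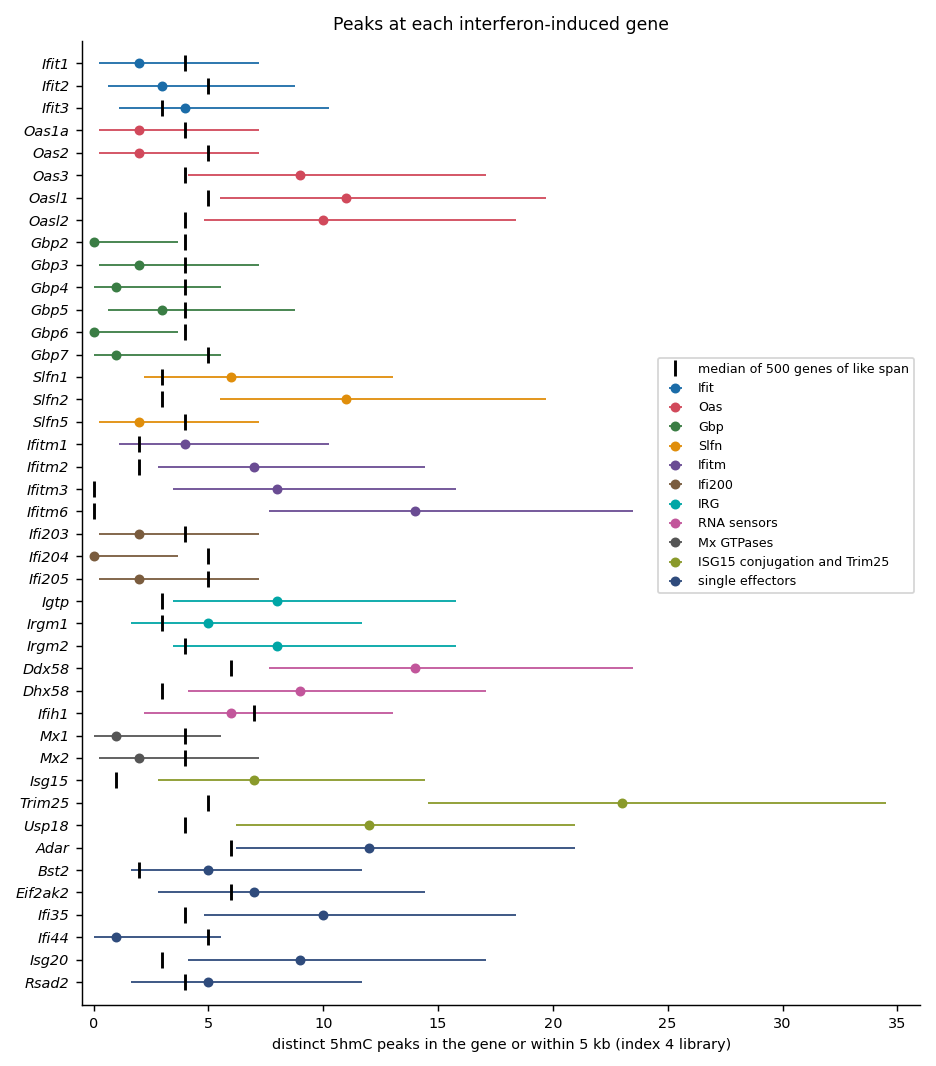
Distinct 5hmC peaks in each of the 42 genes or within 5 kb (horizontal axis), as points with exact Poisson intervals, coloured by family or role. Black ticks are the median of the 500 protein-coding genes of like span; all 6 Gbp and all 3 Ifi200 genes lie below their tick, and all 4 Ifitm genes lie above.

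To see families without counting a peak more than once, the spans and flanks of each family were merged. With 5 kb flanks the Ifitm genes had the highest density, at 0.615 peaks per kb [0.402 to 0.901], 4.70 times the 0.131 per kb of all protein-coding genes merged in the same way. The immunity-related GTPase genes Irgm1, Irgm2 and Igtp followed with 0.405 [0.247 to 0.625], the Slfn genes with 0.346 [0.208 to 0.540] and the Oas genes with 0.249 [0.170 to 0.351]. The Ifit genes, at 0.133 [0.0609 to 0.253], did not differ from all genes beyond counting error. The Ifi200 genes, at 0.0435 [0.0118 to 0.111], and the Gbp genes, at 0.0383 [0.0154 to 0.0790], were below all genes, at 0.332 and 0.293 times their density. By gene bodies alone the order changed: the GTPase genes had 0.545 per kb and the Ifitm genes 0.422 [0.115 to 1.08], an interval that then includes the 0.131 of all gene bodies. With 5 kb flanks, the intervals of the Gbp and Ifi200 families did not overlap those of the Oas, Slfn, Ifitm and GTPase families. By bodies alone this held for Gbp [0.00194 to 0.0579] but not for Ifi200, whose interval [0.00998 to 0.141] overlapped that of Ifitm and included all gene bodies. Neighbouring peaks are not independent, so these intervals are too narrow as a guide to how firmly the families are ordered.

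**Figure D2:**
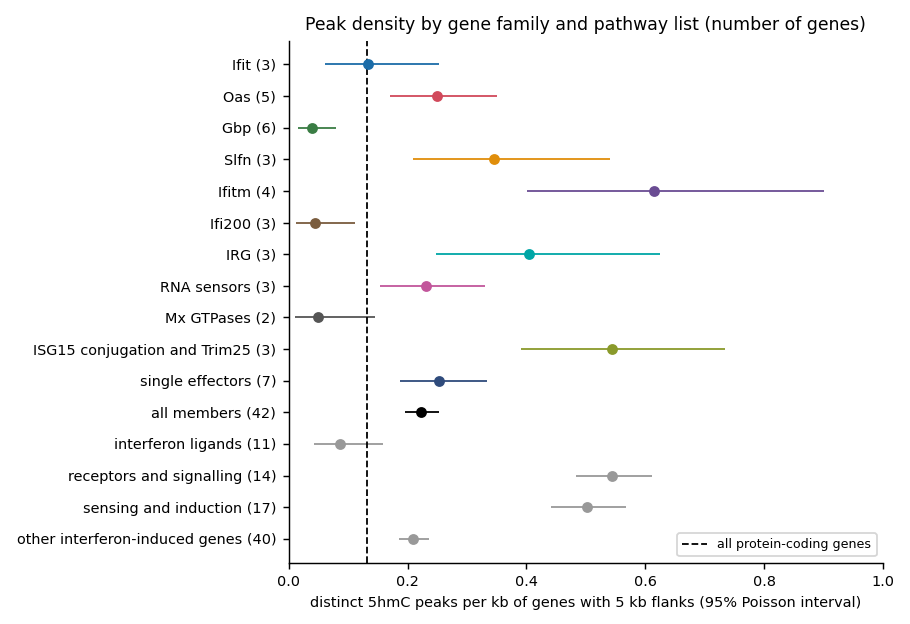
Distinct peaks per kb of merged gene spans with 5 kb flanks, for each family or role of the members (coloured), for all 42 members (black) and for 4 lists of the pathway (grey); bars are 95% exact Poisson intervals and brackets give the number of genes. The dashed line is the 0.131 per kb of all protein-coding genes, with Gbp and Ifi200 to its left and Ifitm farthest to its right.

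The Ifitm proteins sit in cell membranes and block the fusion of enveloped viruses. Ifitm6 had 14 peaks within 5 kb [7.65 to 23.5], Ifitm3 8, Ifitm2 7 and Ifitm1 4. These genes are short (1081 bp for Ifitm6 and 1155 bp for Ifitm3), and their peaks lay mostly outside them: the 4 bodies held 4 peaks in all, and that of Ifitm1 none. With a 2 kb flank in place of 5 kb, Ifitm6 kept 6 and Ifitm3 kept 3. The median gene of like span had 0 peaks for Ifitm6 and Ifitm3, but 65.8% and 52.4% of those genes belonged to receptor and structural families such as olfactory receptors. Without such families the medians were 0 and 1. From Ifitm5, which is no member, to Ifitm6 the cluster covers 67.9 kb of chromosome 7 (140948958 to 141016892) and held 43 peaks, or 0.633 per kb. The 500 kb on either side held 0.242 per kb. Bst2, which tethers budding virus to the cell surface, had 5 peaks within 5 kb, with 1 in the body.

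The group of Isg15, Usp18 and Trim25 had the next highest density. Isg15 is a ubiquitin-like protein that is attached to other proteins, Usp18 removes it and dampens interferon receptor signalling, and Trim25 is a ubiquitin ligase that activates the RNA sensor Ddx58. The 3 genes together held 42 distinct peaks, or 0.543 per kb [0.392 to 0.734], and 23 of these were those of Trim25. Isg15 alone had 0.614 per kb and Usp18 alone 0.343, so the rank depends on the grouping. Trim25, on chromosome 11 (88999403 to 89020294), had 23 peaks within 5 kb [14.6 to 34.5], the most of any member, and 17 of them lay in its body. Its density of 0.745 per kb was 3.72 times that of its surroundings from 5 to 100 kb away. Usp18 had 12 peaks, 9 of them in the body. Isg15 had 7, of which 3 lay inside the neighbouring gene Agrn. Given to the nearest gene only, 2 peaks remained with Isg15.

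The sensors of viral RNA were intermediate. Ddx58 (RIG-I) had 14 peaks within 5 kb [7.65 to 23.5], where the like-span median was 6. Dhx58 (LGP2) had 9 against 3, of which 4 lay inside the neighbouring gene Kat2a. Ifih1 (MDA5), the longest member at 50.6 kb, had 6 against 7. Among other genes that act on RNA, Adar, which edits adenosines in double-stranded RNA, had 12 peaks within 5 kb, 11 of them in its body. The exonuclease gene Isg20 had 9 and the kinase gene Eif2ak2, which halts translation, had 7. Of the 41 members with peaks in their surroundings, Isg20 exceeded them most, with 0.529 peaks per kb against 0.0947 from 5 to 100 kb away, 5.59 times as dense. Ifi35 had 10 peaks, 4 of them inside the neighbouring gene Vat1, and was 4.07 times as dense as its surroundings. Rsad2 (viperin), an enzyme that makes an antiviral nucleotide, had 5, and Ifi44 had 1 with no peak at all from 5 to 100 kb away.

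The Oas enzymes make short chains of adenylate that activate an RNA-degrading enzyme, and counts within their family were uneven. Oasl1 had 11 peaks within 5 kb and Oasl2 10, both on chromosome 5, where the 41.0 kb that hold both genes had 0.439 per kb. At the second locus on that chromosome (120730333 to 120921648), Oas3 had 9 peaks, while Oas2 and Oas1a had 2 each, none of the latter in the body of Oas1a. That locus holds 10 annotated Oas genes in 191 kb and had 15 peaks, or 0.0784 per kb [0.0439 to 0.129]. The stretch from the last peak before Oas1h and Oas1g to the next was 42.5 kb. The 500 kb on either side held 0.276 per kb.

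Ifit proteins bind foreign RNA and stop its translation. Ifit3 had 4 peaks within 5 kb, Ifit2 3 and Ifit1 2, where genes of like span had medians of 3, 5 and 4. Both peaks of Ifit1 and 1 of Ifit3 lay inside the annotated span of Ifit1bl1, a related gene that had 20 peaks. The whole cluster on chromosome 19 (34550550 to 34662981) held 24 peaks, or 0.213 per kb, against 0.109 in the 500 kb on either side.

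Among the interferon-induced GTPases, families of similar function had unlike numbers of peaks. Irgm1, Irgm2 and Igtp, which act on vacuoles of intracellular microbes, had 5, 8 and 8 peaks within 5 kb, all above the medians of 3, 4 and 3 in genes of like span. The guanylate-binding proteins encoded by the Gbp genes work at the same vacuoles. Gbp5 had 3 peaks, Gbp3 2, Gbp4 and Gbp7 1 each, and Gbp2 and Gbp6 0 [0 to 3.69], where medians of like span were 4 or 5. Only 2 of the 7 Gbp peaks lay in a gene body, which gives 0.0160 per kb of body. Mx1 and Mx2, dynamin-like GTPases that trap viral particles, had 1 and 2 against a median of 4. Their 3 peaks give 0.0494 per kb [0.0102 to 0.144], an interval that includes the value for all genes.

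Both Gbp loci were sparse over their full length. On chromosome 3 (142496934 to 142663508) 6 Gbp genes and pseudogenes spanned 167 kb with 4 peaks, or 0.0240 per kb [0.00654 to 0.0615], an interval that includes the 0.0460 of the 500 kb on either side. On chromosome 5 (105012513 to 105346476) 6 such genes spanned 334 kb with 7 peaks, or 0.0210 per kb [0.00843 to 0.0432], while the 500 kb on either side held 0.230 per kb. Gbp2 lay in a peak-free stretch of 127 kb and Gbp6 in one of 105 kb. Ifi204 lay in one of 158 kb that also holds Ifi207, Ifi208 and Ifi209. Such stretches were shorter than the median of 398 kb over 5797 protein-coding genes with none within 5 kb and a peak on either side. That set includes receptor and structural families such as olfactory receptors, of whose 1755 genes 8.21% had a peak. The median without these families was not computed.

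The Ifi200 proteins are nuclear, and several of them bind DNA. Ifi203 and Ifi205 had 2 peaks within 5 kb each and Ifi204 none, against medians of 4 or 5 in genes of like span. Their cluster on chromosome 1 (173349547 to 174031755) holds 14 genes and pseudogenes in 682 kb and had 30 peaks, or 0.0440 per kb [0.0297 to 0.0628]. This is below all genes but above its own surroundings, since the 500 kb on either side held 0.00800 per kb. Of those 30 peaks, 14 lay in Aim2, the sensor of DNA in the cytosol.

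Slfn genes restrain growth of immune cells and some restrict viruses. Slfn2, needed for the quiescence of T cells and monocytes, had 11 peaks within 5 kb [5.49 to 19.7] in a gene of 5.57 kb, and 4.8% of genes of like span had more. Slfn1 had 6, and Slfn5 2 against a median of 4. The cluster of 9 Slfn genes on chromosome 11 (82951349 to 83286726) held 0.221 per kb, next to 0.224 in the 500 kb on either side. Slfn2 alone was 3.44 times as dense as its surroundings.

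The Gbp, Oas, Slfn, Ifit, Ifitm and Ifi200 loci consist of related copies, and Irgm2 and Igtp are related neighbours. How reads that match several copies were placed was not given in the sources used here, so counts at single copies are uncertain. The part of this in the low counts at Gbp and Ifi200 genes was not tested. Nor was its part in the high counts at Ifitm and GTPase genes.

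Members were compared with the sequence around them to see whether their counts followed the locus. A higher density at the gene than from 5 to 100 kb away was found for 27 of 42 members, or 64.3% [49.2 to 77.0%], against 44.1% of all protein-coding genes. A gene without a peak cannot exceed its surroundings, and 3 members and 5849 of the 21779 protein-coding genes had none. Part of this difference therefore restates the share of genes with a peak. The median ratio was 1.36 over the 41 members whose surroundings held a peak. The Ifitm genes lay in the densest surroundings, at 0.468 to 0.532 per kb, where Ifitm1 (0.323) and Ifitm2 (0.471) were less dense than their surroundings and Ifitm3 and Ifitm6 were denser. Slfn5 and Oas2 were also well below their surroundings, at 0.317 and 0.268 times.

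**Figure D3:**
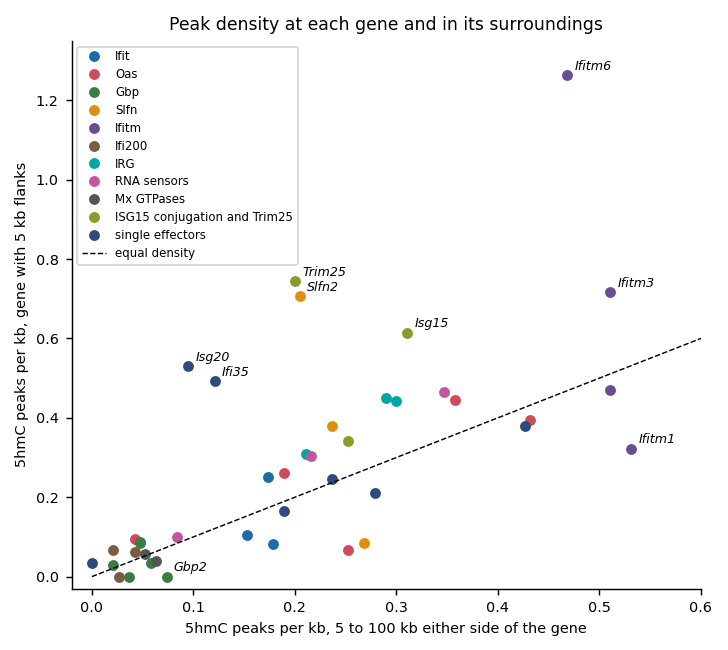
Peaks per kb in each gene with 5 kb flanks (vertical axis) against peaks per kb from 5 to 100 kb on either side (horizontal axis), 1 point per member, coloured by family or role. Of the 42 points, 27 lie above the dashed line of equal density, farthest for Ifitm6, Trim25 and Slfn2, and Gbp2 lies on the floor.

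Listed promoters were searched for the letters of the response elements through which interferon acts. RefSeq promoters of build GRCm38.p6, each of 300 bases (250 before to 50 after a listed start), were found for 34 of the 42 members. Oas2, Gbp4, Gbp6, Ifi204, Dhx58, Mx1, Mx2 and Usp18 had no entry. The ISRE core (GAAA, any 2 bases, then GAAA), searched on both strands, was present at 22 of the 34 genes, or 64.7% [47.9 to 78.5%], against 3.94% of the 17492 protein-coding genes with a promoter. The GAS motif (TTC, any 3 bases, then GAA), which reads the same on both strands, was present at 13 (38.2%), against 8.92%. The longer form of the core with a C after it, which contains the core, was present at 14 (41.2%), against 0.955%. A match is a description of the letters only, and elements with other letters or outside the 300 bases were not counted. Member promoters were poor in CpG, the dinucleotide that carries most 5-methylcytosine, with a median of 5.5 in 300 bases against 13 over all protein-coding genes.

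The 250 bases before the start are shown for 6 members with 0 to 11 peaks within 5 kb, 5′ to 3′ on the strand of the gene, with ISRE cores and GAS motifs in capitals. Isg15 (chr4:156200819-156201068, minus strand) has overlapping cores, Ifit1 (chr19:34640639-34640888, plus strand) has a pair, and Gbp2 (chr3:142620413-142620662, plus strand) has a single core but no peak. Irgm2 (chr11:58214727-58214976, plus strand) and Igtp (chr11:58199306-58199555, plus strand) are neighbours with promoters alike in most letters. They share the same arrangement of a GAS motif just before a core. Each had 8 peaks, of which 1 counted for both, and a link of motifs to peaks was not tested. Slfn2 (chr11:83064862-83065111, plus strand) has neither motif and 11 peaks.
Isg15: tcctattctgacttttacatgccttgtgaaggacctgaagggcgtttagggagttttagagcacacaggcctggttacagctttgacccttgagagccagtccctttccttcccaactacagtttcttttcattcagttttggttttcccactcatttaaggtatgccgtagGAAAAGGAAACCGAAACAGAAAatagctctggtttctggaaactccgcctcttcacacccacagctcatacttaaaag
Ifit1: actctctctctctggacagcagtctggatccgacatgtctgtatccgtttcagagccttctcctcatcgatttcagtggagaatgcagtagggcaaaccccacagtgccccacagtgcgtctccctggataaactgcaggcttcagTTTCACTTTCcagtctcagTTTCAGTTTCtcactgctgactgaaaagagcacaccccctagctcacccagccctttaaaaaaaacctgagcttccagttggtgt
Gbp2: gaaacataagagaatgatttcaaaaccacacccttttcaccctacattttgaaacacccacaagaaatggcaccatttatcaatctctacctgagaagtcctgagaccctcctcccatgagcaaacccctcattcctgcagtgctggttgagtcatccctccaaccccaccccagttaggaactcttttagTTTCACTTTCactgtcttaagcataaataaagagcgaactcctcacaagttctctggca
Irgm2: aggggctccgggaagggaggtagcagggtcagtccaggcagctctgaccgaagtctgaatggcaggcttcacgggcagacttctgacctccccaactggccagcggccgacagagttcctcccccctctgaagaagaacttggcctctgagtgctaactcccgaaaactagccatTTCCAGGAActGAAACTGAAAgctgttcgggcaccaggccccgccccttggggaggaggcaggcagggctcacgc
Igtp: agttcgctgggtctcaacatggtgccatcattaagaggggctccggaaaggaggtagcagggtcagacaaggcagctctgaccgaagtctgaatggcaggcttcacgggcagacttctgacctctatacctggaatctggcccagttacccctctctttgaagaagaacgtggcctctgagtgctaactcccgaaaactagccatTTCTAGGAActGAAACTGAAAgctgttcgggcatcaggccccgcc
Slfn2: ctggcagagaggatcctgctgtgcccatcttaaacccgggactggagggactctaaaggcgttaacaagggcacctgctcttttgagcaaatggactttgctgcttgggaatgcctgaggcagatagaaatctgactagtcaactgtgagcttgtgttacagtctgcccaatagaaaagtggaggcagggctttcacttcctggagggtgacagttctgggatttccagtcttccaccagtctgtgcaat

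Members with an ISRE core in the promoter did not have more peaks, by median, than those without an exact match. Of the 22 genes with an ISRE core in the promoter, 21 had a peak within 5 kb, with a median of 5 peaks. All 12 without a core had a peak, with a median of 10. A peak midpoint within 1 kb of a start was found at 9 of the 22 and at 9 of the 12. Over all protein-coding genes the share with a peak that near was 29.2% with the core and 28.4% without it. CpG content was the same for both sets of members, with a median of 5.5 each. The sets are small and were not matched for family, gene span or the number of listed starts. All Gbp and Ifi200 genes with a listed promoter, and also Irgm1, Irgm2 and Igtp, fell in the set with a core. The difference in medians may therefore partly restate the differences between families. Genes with several listed starts, such as Adar and Isg20, had more chances of a peak near a start.

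Few peaks touched the promoters themselves. Of the 34 members, 2 had a peak that reached into the 300 bases, or 5.88% [1.63 to 19.1%], next to 5.13% of all protein-coding genes. At Slfn2 the peak on chromosome 11 (83064824 to 83064872) reached 11 bases into the promoter, and at Slfn1 the peak at 83116864 to 83116944 reached 6. Within 1 kb of a start, 18 of 34 members had a peak midpoint, or 52.9% [36.7 to 68.5%], against 28.4%. The nearest midpoints lay 90 bases after the start of Oasl2, 84 after that of Slfn1 and 204 after that of Ifitm6, and at Trim25 the nearest lay at -371 bases. Positions in the list are rounded, to 16 bp for 13 members, 8 bp for 20 and 2 or 4 bp for the other 9, which limits such distances.

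**Figure D4:**
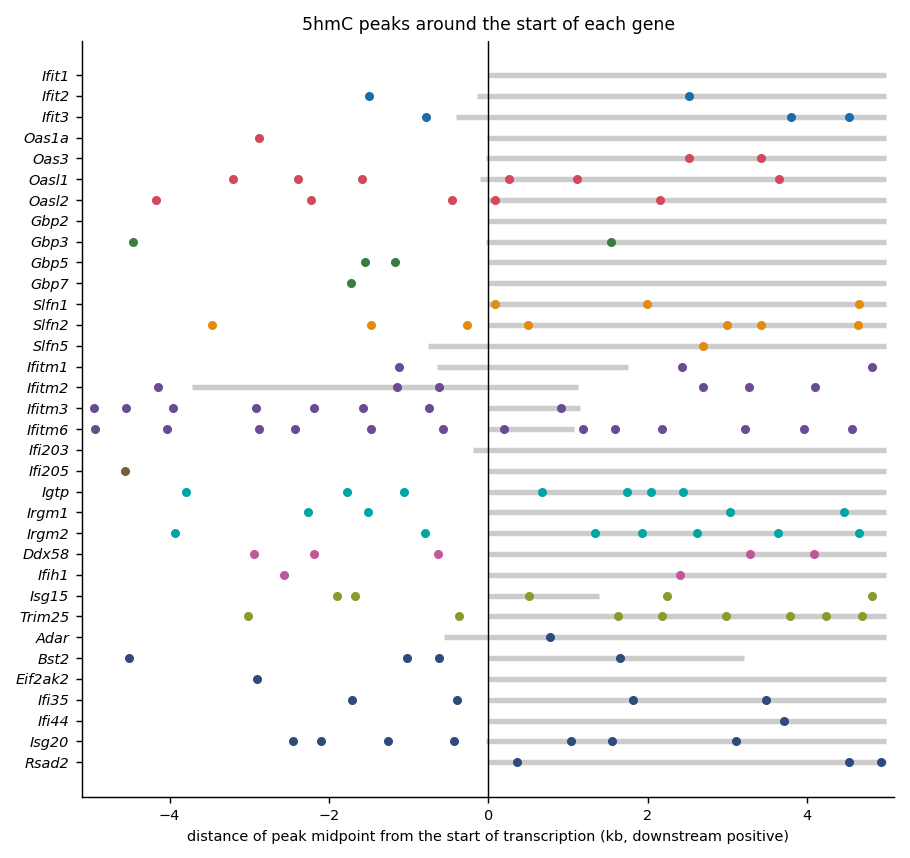
Peak midpoints (points, coloured by family or role) within 5 kb of the first listed start of transcription for the 34 members with a RefSeq promoter, drawn on the strand of the gene with downstream to the right; grey bars are the gene. Ifit1, Gbp2 and Ifi203 have no peak in this window, and Ifitm3 and Ifitm6 share several of theirs.

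Around the start, the point values of member genes lay above those of all genes in each distance class, but not always beyond counting error, and both were lowest at the start. From 2500 to 1000 bp before it, members had 26 peaks, or 0.510 per kb per gene [0.333 to 0.747], against 0.189. From 1000 to 250 bp before it they had 0.471 [0.243 to 0.822] against 0.209. Downstream, from 2500 to 5000 bp, they had 0.412 [0.287 to 0.573] against 0.214. In the other 4 classes the interval reached or included the value of all genes. These were 5000 to 2500 bp before the start (0.247 [0.153 to 0.378] against 0.155) and within 250 bp of it, with 3 peaks (0.176 [0.0364 to 0.516] against 0.110). After the start they were 250 to 1000 bp (0.275 [0.110 to 0.566] against 0.156) and 1000 to 2500 bp (0.412 [0.255 to 0.629] against 0.255). Peaks near 2 starts count for both.

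**Figure D5:**
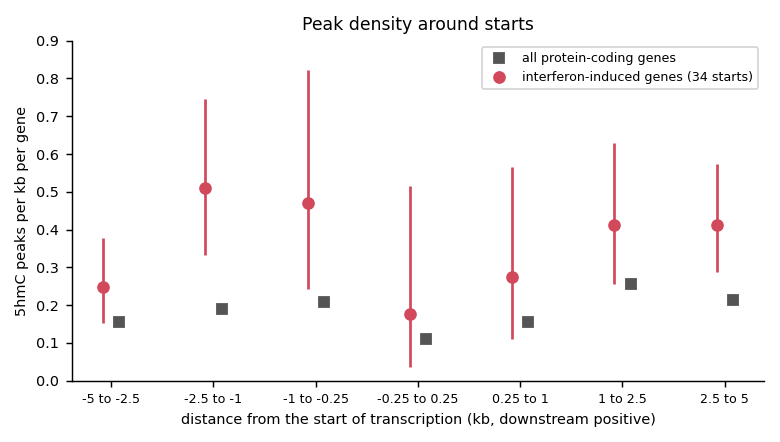
Peaks per kb per gene (vertical axis) in 7 classes of distance from the first listed start (horizontal axis, in kb), for the 34 members (red, with 95% exact Poisson intervals) and for all 17492 protein-coding genes with a promoter (grey). The points of members lie above all genes in each class, with intervals that reach or include all genes in 4, and both are lowest in the class at the start.

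Genes of the pathway that act before the induced genes were set beside them. Of 14 genes for receptors and signalling, 14 had a peak within 5 kb, at 0.544 per kb merged [0.483 to 0.612], and all 14 exceeded the median of genes of like span. Over all protein-coding genes, 73.1% had a peak and 44.6% exceeded that median. Jak1, the kinase shared by the interferon receptors, had 57 peaks, Ptpn6, a phosphatase, 29 and the receptor gene Ifnar2 27. Genes for nucleic acid sensing and induction had a peak in 16 of 17 cases, at 0.502 per kb [0.442 to 0.568]. In that list the adaptor gene Traf3 had 64, Irf8 34 and the kinase gene Tbk1 30, while Tlr3 had none. Of 11 interferon genes 7 had a peak (63.6%), at 0.0866 per kb [0.0415 to 0.159], with 2 each at Ifna2, Ifnk and Ifng and none at Ifnb1, Ifna1, Ifna4 and Ifna5. These genes are short, so the share of all genes is not a like baseline for them. Their median density was 0.0864 per kb, where the median of their like-span densities was 0, and 4 of the 11 exceeded the median count of genes of like span.

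Further interferon-induced genes, which are not members, resembled the members in density. Several of them, such as Gbp8, Gbp9, Slfn4 and Ifit3b, lie in the same clusters as members, so the lists are not independent. Of 40 genes 37 had a peak (92.5%), at 0.210 per kb [0.186 to 0.235], where the 42 members together had 0.223 [0.196 to 0.253]. Nlrc5, an activator of MHC class I genes, had 36 peaks, Sp100 22, and the nuclear body gene Pml and the nucleotide hydrolase gene Samhd1 21 each. Apol9b, Oas1g and Phf11d had none. The members and this list were both less dense than the genes for receptors and signalling, whose interval lies above those of both. All of these are counts of peaks from 1 list, without replicates.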

How the data were processed

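Bone marrow DNA fragments bearing 5hmC were glucosylated, tagged with biotin, captured and sequenced as paired ends, per the labels' protocols. Per the file headers, the authors called peaks with the PICS algorithm, in windows of 250 bp moved by 20 bp. The minimum forward and reverse read count was 3 in a window and 10 in a region. The deposited lists hold only chromosome, start and end, with no value per peak. The build, mm10, comes from the submitters' processing notes, and the aligner was not given in the sources used here.

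Repeated lines (6.63%) were counted once. Starts were moved to 1-based positions. Genes came from a RefSeq table of GRCm38.p6, leaving out models that begin before 3 Mb except on Y. Counting was tested on simulated data. Python 3.11.15, numpy 2.4.6, pandas 2.3.3 and scipy 1.17.1 were used. No test was run, since the list has no replicate. Named in full were the members with most peaks in all and per family; members with none were all named, as were, of pathway lists, the 3 genes with most and those with none. The members and lists were chosen with earlier results of these data known. From the list of receptors and signalling, 1 gene is not reported here.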

Additional observations from a re-analysis of the deposited data

How the results depend on the processing

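Alternatives were repeated lines kept, the gene span alone, flanks of 2 or 10 kb, any base of a peak in place of its midpoint, 200 or 1000 genes of like span, an autosomal background and a background without receptor and structural families. Leaving out Mx1 and Mx2, and giving each peak to its nearest gene only, were added after seeing the data. The share of members with a peak was 81.0% with the gene span alone, because fewer peaks can count, and 92.9% with 5 kb flanks. The share of promoters with the ISRE was 41.2% with the longer motif, which is contained in the core. Against genes of like span, the ratio of shares ran from 1.20 to 1.29 (1.25 as reported) and the ratio of median densities from 1.27 to 1.76 (1.56 as reported). The interval of the density ratio was 0.540 to 2.37 as reported and included 1 in every alternative. For the ratio of shares the interval was 1.09 to 1.31 as reported and 0.991 to 1.34 with the gene span alone. Gbp density ran from 0.0160 to 0.0383 per kb, Ifi200 from 0.0405 to 0.0484, Ifitm from 0.422 to 0.626 and the GTPase genes (Irgm1, Irgm2 and Igtp) from 0.317 to 0.545. With the gene span alone the GTPase genes were densest, and the Ifitm and Ifi200 intervals included all gene bodies. Counts of single members left their reported interval in 14 cases with the gene span alone and in 4 with 2 kb flanks. This happened in 1 case each with 10 kb flanks and with the nearest gene only. All 42 counts stayed inside with repeated lines kept or any base of a peak. Of the protein-coding genes, 1755 belong to the left-out families and 8.21% of these had a peak, against 78.8% of the others. Without replicate 1 or replicate 2 every value is the same by construction, as the 2 lists do not differ, and this says nothing about stability. Stricter score cutoffs were not run, since the list has no score. No paired analysis was possible because the lists are identical and no list of normal marrow was used.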
